A study of Gallus gallus with 9 samples.

Results

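The 3 sham-manipulated hens of a study of 9 laying hens were set against the 6 hens of the other groups in liver RNA-Seq, and the loci for which the sham-manipulated hens stood apart were described hen by hen. The 3 hens were taken by their sample labels, without reference to any measured value. All 9 hens were Isa Brown layers, all were female, they were reared in floor pens in 1 room, and livers were collected at 55 weeks of age. Sham-manipulated hens came from eggs that were disinfected, drilled near the sharp end and sealed with paraffin after 1 day of incubation, with nothing taken out and nothing put in. Albumen-deprived hens came from eggs drilled and sealed in the same way, from which 3 ml of albumen was withdrawn and replaced by saline. Non-manipulated hens came from eggs that were left untouched. Each group had 3 hens, each sequenced as 1 library of unstranded single-end reads. The comparison asks which genes set the sham-manipulated hens apart both from hens whose eggs were never opened and from hens whose eggs were opened and deprived.

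The liver of a laying hen makes bile acids from cholesterol and, under oestrogen, the yolk precursor proteins and lipoproteins that are carried in the blood to the ovary. Bile acid synthesis begins with 7-alpha-hydroxylation of cholesterol or of an oxysterol, and its first enzyme, CYP7A1, is repressed through fibroblast growth factor signalling and through bile acid receptors. The organ also holds macrophages and other immune cells, which carry Toll-like receptors that recognise microbial products, and in birds it can hold heterophils, the avian counterpart of neutrophils.

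The deposited table held read counts for 22082 loci, of which 12324 had more than 1 CPM (counts per 1000000 counts of the library) in at least 3 libraries and were tested. Of these, 10341 carried a gene identity and 1983 were unidentified loci. The sham-manipulated libraries held 15496284, 21747636 and 14075978 counts and the other 6 between 13720872 and 17592938. Spearman correlations between libraries, across loci, were 0.961 to 0.972 among the sham-manipulated hens, 0.957 to 0.979 between sham-manipulated and other hens, and 0.967 to 0.982 among the other hens. All 15 hepatocyte markers were tested, and none differed at the nominal level, an unadjusted P-value under 0.05. Their summed level was 167342 to 249892 CPM in the sham-manipulated hens and 187649 to 232405 CPM in the other hens.

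Across all loci the contrast was small. With the main cut-off of the study, a log2-fold change above 1 at an unadjusted P-value under 0.001, 10 loci differed between the sham-manipulated hens and all other hens, or 0.0811% of the loci tested. Of these, 2 were higher (0.0162%) and 8 were lower (0.0649%). With the looser cut-off of the study, an unadjusted P-value under 0.005 and a fold change above 1.5, 70 loci differed (0.568%), 26 higher (0.211%) and 44 lower (0.357%). None had an adjusted P-value under 0.05 in the quasi-likelihood F-test of edgeR with Benjamini-Hochberg adjustment, and the smallest was 0.550. At the nominal level there were 899 loci (7.29%), 414 higher (3.36%) and 485 lower (3.94%), where 616.2 would pass if no locus differed. Whatever the fold change, 191 loci had an unadjusted P-value under 0.01 and 20 under 0.001, where 123.2 and 12.3 would pass if none differed. The likelihood ratio test of edgeR and the Wald test of DESeq2 placed 23 and 31 loci under an adjusted P-value of 0.05. A locus is therefore called higher or lower below only by one of these unadjusted cut-offs. The values of all 3 sham-manipulated hens lay outside the range of the other 6 hens for 423 of the loci tested (3.43%), above it for 190 (1.54%) and below it for 233 (1.89%), and for 55 of the 70 loci at the looser cut-off. When the sham-manipulated hens were set against a single group, 8 loci passed the main cut-off with the non-manipulated hens as comparator (0.0649%) and 13 with the albumen-deprived hens (0.105%). These comparisons share the sham-manipulated libraries. Each P-value sets a group difference against the spread between hens within groups, moderated across loci, and rests on these hens only.

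The filter on low counts bears on the loci with the fewest reads. Of the 70 loci, 13 passed the filter through the other hens alone, with no sham-manipulated library above 1 CPM, and 1, ENSGALG00000009387, passed through the 3 sham-manipulated hens alone. These loci passed only through the hens in which they were high, and they made up 6 of the 10 loci at the main cut-off. The remaining 4 were CYP7A1, TLR7, MYO15B and XLOC_007417.

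CYP7A1, the rate-limiting enzyme of the classical bile acid pathway, had the smallest P-value of any identified locus. It was at 21.4, 8.54 and 20.3 CPM in the sham-manipulated hens, against 70.1, 43.2 and 55.7 CPM in the non-manipulated and 58.6, 76.9 and 45.3 CPM in the albumen-deprived hens. The highest sham-manipulated hen was below the lowest of the other 6, and the non-manipulated and albumen-deprived hens overlapped. The log2-fold change was -1.80 (SE 0.32, adjusted P = 0.550), with -1.75 against the non-manipulated and -1.85 against the albumen-deprived hens taken alone. It passed the looser cut-off with each of the 9 hens left out in turn, at log2-fold changes of -2.02 to -1.48. CYP7A1 lies on chromosome 2 at 111724629-111733836, on the minus strand (Galgal4).

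The rest of the bile acid list did not move as one. Of its 20 loci tested, 3 were lower and 1 was higher at the nominal level, against 3.94% and 3.36% of all loci, and the median log2-fold change was -0.06 beside 0.01 over all loci. CYP39A1, which hydroxylates 24-hydroxycholesterol, was at 82.6, 73.4 and 74.9 CPM in the sham-manipulated hens, against 90.4, 88.9 and 105 CPM in the non-manipulated and 114, 131 and 121 CPM in the albumen-deprived hens. Again no sham-manipulated hen reached the range of the others (log2-fold change -0.48, SE 0.11, adjusted P = 0.550), but the difference was under 1.5-fold. CYP7B1, the oxysterol 7-alpha-hydroxylase of the alternative pathway, was at 186, 202 and 168 CPM in the sham-manipulated hens, against 212, 244 and 199 CPM in the non-manipulated and 365, 273 and 253 CPM in the albumen-deprived hens. For CYP7B1 the sham-manipulated hens overlapped the non-manipulated hens (log2-fold change -0.46, SE 0.15). All 3 lower loci of the list encode 7-alpha-hydroxylases. Only CYP7A1 differed about equally from both groups. Against the non-manipulated and the albumen-deprived hens taken alone, the log2-fold changes were -0.30 and -0.66 for CYP39A1. For CYP7B1 they were -0.24 and -0.68. FGFR4, the hepatocyte receptor for FGF19, was the locus that was higher, at 66.8, 87.4 and 74 CPM in the sham-manipulated hens, against 53.2, 56.4 and 64.2 CPM in the non-manipulated and 65.5, 55.8 and 56.1 CPM in the albumen-deprived hens, without overlap (log2-fold change 0.38, SE 0.12). FGF19 itself spread widely, at 38.2, 14.7 and 7.99 CPM in the sham-manipulated, 4.06, 10.5 and 25.7 CPM in the non-manipulated and 1.94, 1.94 and 19.1 CPM in the albumen-deprived hens, and did not pass the nominal level. The bile acid receptor gene FXR and NR0B2, the small heterodimer partner, did not pass it either, with log2-fold changes of -0.06 and 0.00.

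**Figure D1:**
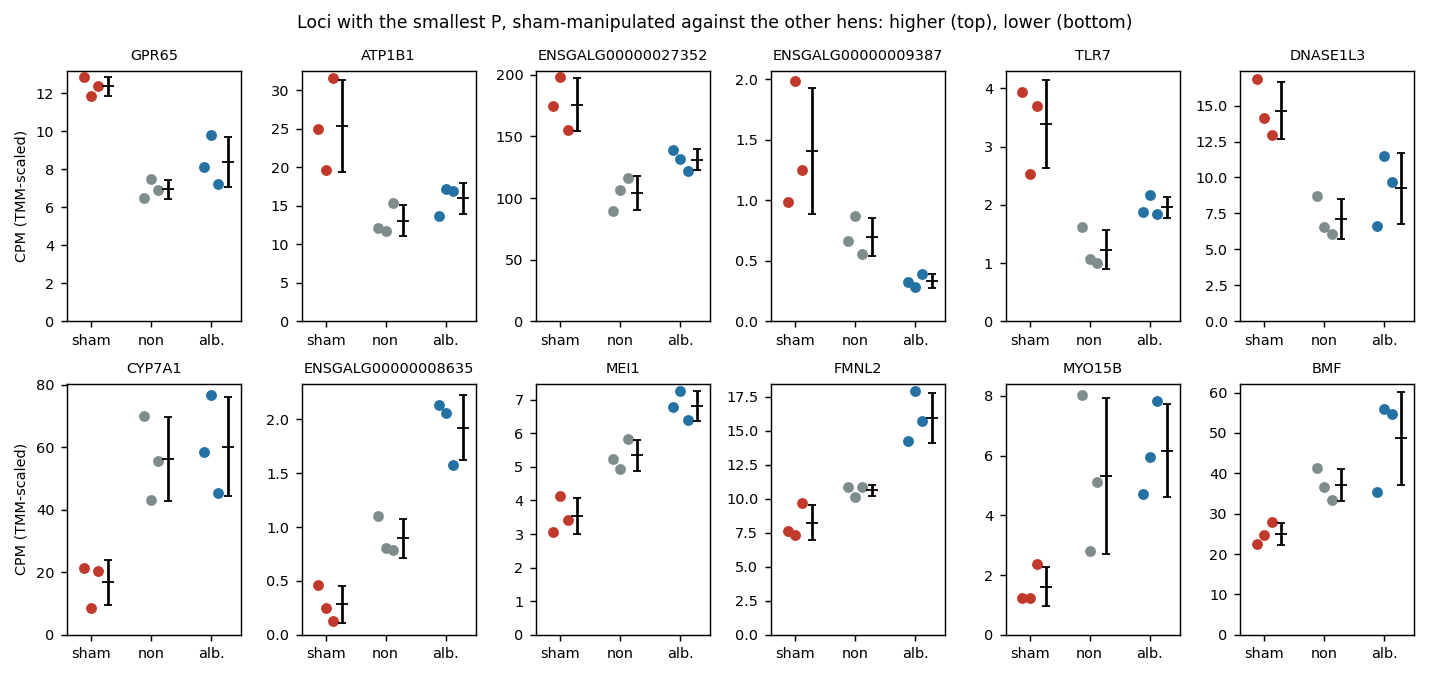
CPM per hen for 12 identified loci, 6 higher (top row) and 6 lower (bottom row), taken by smallest P-value among those past the looser cut-off with all 3 sham-manipulated hens outside the range of the other 6; points are hens of the sham-manipulated (left), non-manipulated and albumen-deprived groups, and bars are the mean and SD of each group. The gap between the groups was fixed by that choice, and CYP7A1 lay between 8.54 and 21.4 CPM in the sham-manipulated hens and between 43.2 and 76.9 CPM in the others.

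GPR65, a proton-sensing receptor of leukocytes, was at 12.9, 11.9 and 12.4 CPM in the sham-manipulated hens, against 6.5, 7.48 and 6.9 CPM in the non-manipulated and 8.15, 9.83 and 7.24 CPM in the albumen-deprived hens. The sham-manipulated hens were close to each other and above every other hen (log2-fold change 0.69, SE 0.13, adjusted P = 0.550), and GPR65 kept the looser cut-off with each of the 9 hens left out. TLR7, the endosomal receptor for single-stranded RNA, was at 3.94, 2.53 and 3.7 CPM in the sham-manipulated hens, against 1.62, 1.07 and 1.01 CPM in the non-manipulated and 1.88, 2.17 and 1.84 CPM in the albumen-deprived hens. All 3 sham-manipulated hens were above the others, with a log2-fold change of 1.12 (SE 0.23, adjusted P = 0.550). DNASE1L3, a secreted nuclease that degrades DNA, was at 16.9, 14.2 and 12.9 CPM in the sham-manipulated hens, against 8.71, 6.55 and 6.06 CPM in the non-manipulated and 6.6, 11.5 and 9.68 CPM in the albumen-deprived hens (log2-fold change 0.85, SE 0.19). BLEC1, a C-type lectin gene of the chicken major histocompatibility region on chromosome 16, was at 12.2, 7.4 and 7.72 CPM in the sham-manipulated hens, against 3.62, 5.95 and 3.98 CPM in the non-manipulated and 4.14, 4.51 and 5.99 CPM in the albumen-deprived hens (log2-fold change 0.96, SE 0.23). Neither overlapped between the sham-manipulated and the other hens, and BLEC1 passed the looser cut-off in 4 of the 9 fits with a hen left out.

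Of the 17 Toll-like receptor and adaptor loci tested, 3 were higher and 1 was lower at the nominal level, and the median log2-fold change was 0.07, beside 3.36% higher, 3.94% lower and 0.01 over all loci. Besides TLR7, the higher loci were TLR6, a partner of TLR2 in recognising bacterial lipopeptides, and MYD88, the adaptor that most Toll-like receptors use. TLR6 (XLOC_013565) was at 2.67, 1.79 and 1.58 CPM in the sham-manipulated hens, against 0.738, 1.00 and 1.35 CPM in the non-manipulated and 0.841, 1.09 and 0.922 CPM in the albumen-deprived hens (log2-fold change 1.01). A second locus of the same name, XLOC_013564, had a log2-fold change of -0.09. Reads that fit both near copies may be missing from the counts, as the authors removed alignments of low mapping quality. MYD88 was at 34.3, 32.2 and 33.5 CPM in the sham-manipulated hens, against 23.7, 28.1 and 28.4 CPM in the non-manipulated and 27.4, 25.9 and 25.4 CPM in the albumen-deprived hens, so its small difference was without overlap (log2-fold change 0.33, SE 0.09). The lower locus was the merged FAM149A /// TLR3, in which the gene that gave the reads cannot be told apart (log2-fold change -0.36). The 3 higher loci were still 3 without sham 1 and without sham 3, and 4 loci were higher without sham 2. Without sham 1 the median of the list was -0.05.

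Markers of immune cells were measured in the same libraries. Of the 12 macrophage loci 11 were tested, 9 had a log2-fold change above 0, none passed the nominal level, and their summed level was 1377 to 1464 CPM in the sham-manipulated hens, against 604 to 1507 CPM in the other hens. Only non-manipulated hen 1 was below 1341 CPM, and it was the lowest hen for all 11 macrophage loci tested. Over all loci 52.7% had a log2-fold change above 0. Of the 15 T and NK cell loci tested, 1 was lower, and of the 4 B and plasma cell loci tested none passed. The summed level of the heterophil markers, given with their hens below, was 31.4 to 101 CPM in the sham-manipulated hens and 26.6 to 54.7 CPM in the other hens. The part of these cells in the values of GPR65, TLR7, DNASE1L3 and BLEC1 was not tested. In whole liver, a change in the number of cells of a type and a change in RNA per cell cannot be told apart.

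The remaining identified loci that were higher in all 3 sham-manipulated hens had varied roles. ATP1B1, the beta subunit of the sodium-potassium pump, was at 25, 19.7 and 31.5 CPM in the sham-manipulated hens, against 12.2, 11.8 and 15.4 CPM in the non-manipulated and 13.7, 17.2 and 17 CPM in the albumen-deprived hens (log2-fold change 0.81, SE 0.16, adjusted P = 0.550). ATP1B1 passed the looser cut-off with each of the 9 hens left out. GLUL, glutamine synthetase, was at 341, 595 and 430.0 CPM in the sham-manipulated hens, against 266, 296 and 253 CPM in the non-manipulated and 253, 297 and 167 CPM in the albumen-deprived hens (log2-fold change 0.84, SE 0.21). Sham 2 was the highest hen for GLUL, and the lowest sham-manipulated hen still exceeded the highest of the others. HERPUD1, a component of the degradation machinery of the endoplasmic reticulum that is induced by unfolded protein, was at 124, 111 and 172 CPM in the sham-manipulated hens, against 57.1, 103 and 77 CPM in the non-manipulated and 81.6, 59.8 and 45.2 CPM in the albumen-deprived hens (log2-fold change 0.95, SE 0.23). It was the 1 locus of 30 on the endoplasmic reticulum stress list at the nominal level, near the background share. PDLIM1, a cytoskeletal adaptor, had a log2-fold change of 0.62 (SE 0.15). The merged locus gga-mir-6594 /// STARD8, of 15 exons and 5268 bases, had a log2-fold change of 0.67, and its counts were not split between the 2 genes. The unnamed loci ENSGALG00000027352, ENSGALG00000021024, ENSGALG00000014126 and ENSGALG00000009387 had log2-fold changes of 0.59, 1.14, 1.99 and 1.54. Without sham 1 the change of ENSGALG00000014126 was 1.08, and without sham 2 that of gga-mir-6594 /// STARD8 was 0.43. GLUL passed the looser cut-off in 4 of the 9 fits with a hen left out, and PDLIM1 and ENSGALG00000014126 each in 3.

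Among the loci that were lower, BMF, a BH3-only protein that promotes apoptosis, was at 22.5, 24.7 and 27.9 CPM in the sham-manipulated hens, against 41.3, 36.6 and 33.4 CPM in the non-manipulated and 35.4, 56 and 54.7 CPM in the albumen-deprived hens (log2-fold change -0.76, SE 0.16, adjusted P = 0.550). MYO15B, an unconventional myosin, was at 1.22, 1.24 and 2.38 CPM in the sham-manipulated hens, against 8.05, 2.81 and 5.11 CPM in the non-manipulated and 4.72, 5.94 and 7.83 CPM in the albumen-deprived hens (log2-fold change -1.84, SE 0.39, adjusted P = 0.550). All 3 sham-manipulated hens were below the others for both, and sham 3 was the nearest to them. SMOX, which oxidises spermine, was at 3.42, 2.14 and 3.63 CPM in the sham-manipulated hens, against 5.61, 4.61 and 7.69 CPM in the non-manipulated and 7.38, 6.74 and 5.53 CPM in the albumen-deprived hens (log2-fold change -1.04, SE 0.24). ABP1, the diamine oxidase that degrades histamine and putrescine, was at 22.9, 21.3 and 20.7 CPM in the sham-manipulated hens, against 25.2, 39.1 and 30.0 CPM in the non-manipulated and 41, 41.7 and 30.7 CPM in the albumen-deprived hens (log2-fold change -0.67, SE 0.16). The sham-manipulated hens were the lowest 3 hens for both oxidases, by less than the SD of the other 6. KIAA1199, a protein of hyaluronan breakdown, was at 40.2, 88.1 and 51.1 CPM in the sham-manipulated hens, against 172, 101 and 124 CPM in the non-manipulated and 111, 141 and 123 CPM in the albumen-deprived hens (log2-fold change -1.10, SE 0.27), and sham 2 was close to the lowest of the others.

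MEI1, known from meiosis, and FMNL2, a formin that elongates actin filaments, had log2-fold changes of -0.77 (SE 0.15) and -0.66 (SE 0.14), and both passed the looser cut-off with each of the 9 hens left out. For FMNL2 the difference was -0.37 against the non-manipulated hens and -0.95 against the albumen-deprived hens. RWDD3, which enhances protein sumoylation, ZBTB42, a zinc finger protein, and UBXN2B, an adaptor of the p97 ATPase, had log2-fold changes of -0.70, -0.63 and -0.90. TNFSF10, the death receptor ligand TRAIL, was at 404, 171 and 319.5 CPM in the sham-manipulated hens, against 522, 438 and 485 CPM in the non-manipulated and 647, 648 and 689.5 CPM in the albumen-deprived hens (log2-fold change -0.92, SE 0.24). The 3 groups did not overlap for TNFSF10, with the sham-manipulated hens lowest and the albumen-deprived hens highest. TNFSF10 passed the looser cut-off in 2 of the 9 fits with a hen left out, and its log2-fold change was -0.64 without sham 2. ZBTB42 passed in 4 of these fits. Of the 24 apoptosis loci tested, 2 were higher and 3 were lower at the nominal level, with a median log2-fold change of 0.03. That was 8.33% higher and 12.5% lower, beside 3.36% and 3.94% of all loci.

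Some loci at the looser cut-off were not set apart by the sham-manipulated hens alone. FLVCR2, a transporter of the heme exporter family, was at 2.26, 1.19 and 1.32 CPM in the sham-manipulated hens, against 20.7, 21.1 and 9.59 CPM in the non-manipulated and 1.68, 1.26 and 0.856 CPM in the albumen-deprived hens, so the non-manipulated hens stood apart. ULK1, a kinase that starts autophagy, was at 16.6, 20.8 and 13.9 CPM in the sham-manipulated hens, against 20.5, 17.9 and 18.1 CPM in the non-manipulated and 34.5, 33.9 and 40.6 CPM in the albumen-deprived hens, so the albumen-deprived hens stood apart. The other 13 loci of this kind, with overlap between the sham-manipulated and the other hens, included IL1R1, IL1R2, ANKRD9, FKBP10 and TRAF1.

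At the looser cut-off there were 20 unidentified loci, all lower, while the identified loci were 26 higher and 24 lower. Of the 20, 11 had passed the filter on low counts only through the other hens, in which they were high. A filter of 3 libraries can be met by the 6 other hens more readily than by the 3 sham-manipulated hens. Its part in the direction was not tested, and nothing is read from the direction. Without the filter, the looser cut-off gave 39 higher and 60 lower loci in all, beside 26 and 44 with it. At the nominal level the 1983 unidentified loci tested gave 46 higher and 138 lower, and the 10341 identified loci 368 higher and 347 lower. XLOC_002413 had 12, 15 and 7 counts in the sham-manipulated hens, against 48, 37 and 21 in the non-manipulated and 61, 64 and 73 in the albumen-deprived hens (log2-fold change -2.28, SE 0.38, adjusted P = 0.550). XLOC_020199 had 5, 2 and 8 counts in the sham-manipulated hens, against 22, 27 and 44 in the non-manipulated and 50, 39 and 23 in the albumen-deprived hens (log2-fold change -2.83, SE 0.48, adjusted P = 0.550). XLOC_018977 had 1, 3 and 1 counts in the sham-manipulated hens, too few for a fold change, against 8, 6 and 24 in the non-manipulated and 15, 17 and 40 in the albumen-deprived hens. These loci were chosen for having the 3 sham-manipulated hens lowest, and each had passed the filter through the other hens alone.

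Of the 70 loci, 11 lay within 100 kb of another of the 70, in 7 pairs, a share that was not computed for all loci. Both members of each pair had the same direction. Where both were unidentified this was fixed, since all unidentified loci at this cut-off were lower. XLOC_002413 (chromosome 1, 20131572-20134203) began 1007 bases after the end of ENSGALG00000008635 (chromosome 1, 20126933-20130565), which had 8, 5 and 2 counts in the sham-manipulated hens, against 15, 12 and 14 in the non-manipulated and 33, 36 and 24 in the albumen-deprived hens. Such neighbours may be fragments of 1 transcript, which was not tested. XLOC_008688 lay within the span of XLOC_007417 on chromosome 2 (96419929-96436809). The authors left out reads that could belong to more than 1 locus, and whether both loci belong to 1 transcript was not tested. On chromosome 11, XLOC_003447 (9728335-9755537) held XLOC_003775 within its span and ended 346 bases before XLOC_003663 (9755883-9777966). All 3 were lower, with log2-fold changes of -0.73, -1.61 and -0.77 for XLOC_003447, XLOC_003775 and XLOC_003663. UBXN2B (chromosome 2, 111687480-111704557, plus strand) ended 20072 bases before CYP7A1, and was at 4.69, 2.83 and 4.03 CPM in the sham-manipulated hens, against 9.15, 5.48 and 7.07 CPM in the non-manipulated and 7.25, 6.74 and 7.44 CPM in the albumen-deprived hens. For this pair too, all 3 sham-manipulated hens were below the others and sham 2 was the lowest. The last pair was IL1R2 and IL1R1.

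The 3 sham-manipulated hens did not weigh equally. Sham 1 was the highest or the lowest of the 9 hens for 29.5% of the loci tested, sham 2 for 26.4% and sham 3 for 18.9%, beside 17.0% to 24.7% for the other hens. Among the 70 loci, the hen farthest from the others was sham 1 for 22, sham 2 for 30 and sham 3 for 18. Without sham 1, 60 loci passed the looser cut-off, of which 30 were among the 70. Without sham 2 there were 107, of which 28 were among the 70, and without sham 3 there were 85, of which 31 were among the 70. Leaving out a non-manipulated or albumen-deprived hen gave 54 to 95 loci, of which 39 to 49 were among the 70. In all, 8 of the 70 loci passed the looser cut-off in each of the 9 fits, namely CYP7A1, GPR65, ATP1B1, MEI1, FMNL2, ENSGALG00000008635, XLOC_002413 and XLOC_020199. The last 3 of these had passed the filter on low counts through the other hens alone. At the main cut-off there were 7 loci without sham 1, 19 without sham 2 and 13 without sham 3, and those without sham 3 were 10 higher and 3 lower, against 2 higher and 8 lower with all hens.

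**Figure D2:**
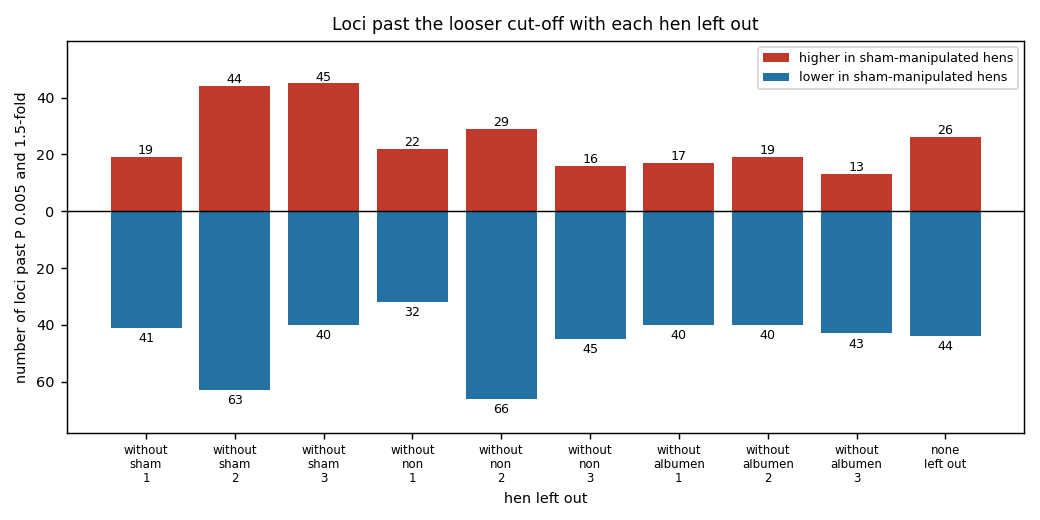
Number of loci past the looser cut-off, higher (upward bars) and lower (downward bars) in the sham-manipulated hens, with each hen left out and, at the far right, with none left out. Without sham 2 the counts were 44 higher and 63 lower, beside 26 higher and 44 lower with all 9 hens.

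**Figure D3:**
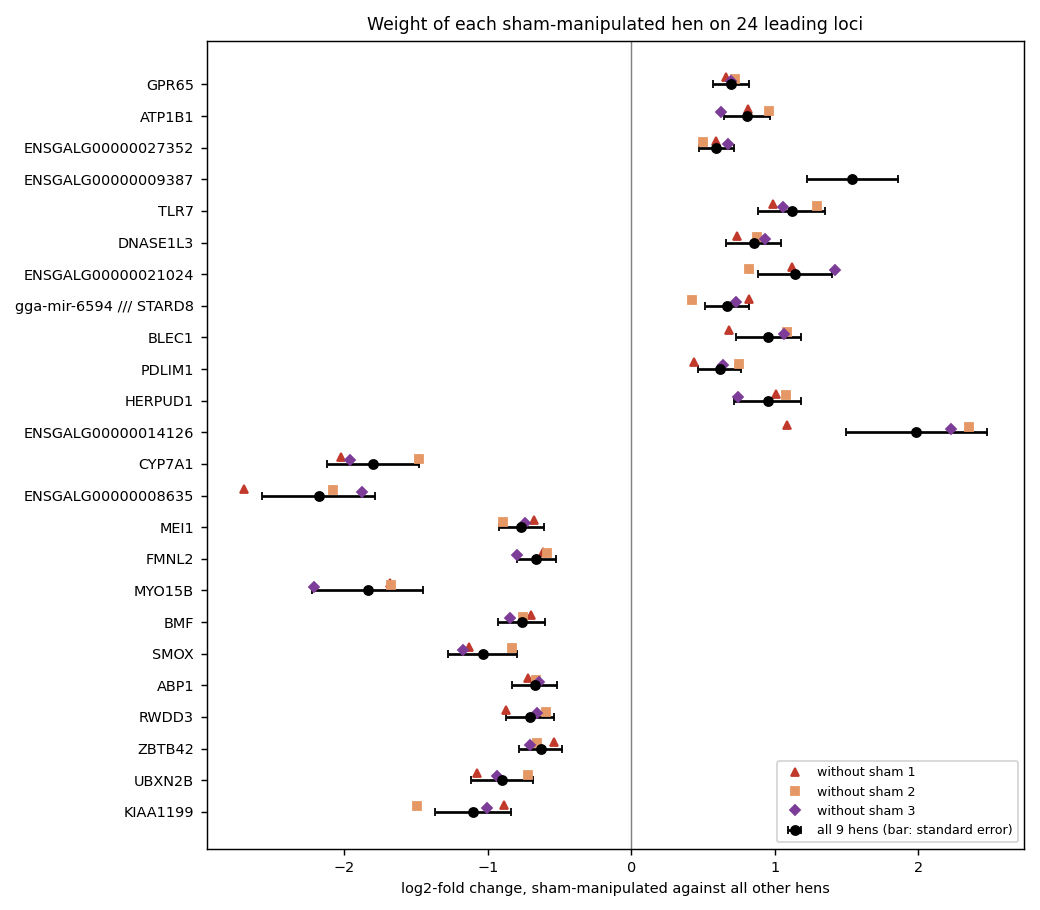
Log2-fold change of the 24 identified loci chosen by the rule for named genes, with all 9 hens (black, bar: standard error) and without each sham-manipulated hen (coloured symbols). No symbol crosses 0, and ENSGALG00000009387 has no symbols because it no longer passed the filter once any sham-manipulated hen was left out.

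Genes of dividing cells were high in sham 1 only. Of the 32 cell cycle and DNA replication loci tested, 29 had a log2-fold change above 0 and 8 were higher at the nominal level, with a median of 0.85. Over all loci 52.7% were above 0 and 3.36% were higher. Sham 1 was the highest of the 9 hens for 28 of the 32. MKI67, the proliferation marker, was at 29.1, 7.8 and 3.83 CPM in the sham-manipulated hens, against 3.99, 5.41 and 6.4 CPM in the non-manipulated and 8.28, 6.8 and 5.6 CPM in the albumen-deprived hens. TOP2A, the topoisomerase of replicating cells, was at 23.9, 5.16 and 3.17 CPM in the sham-manipulated hens, against 3.25, 4.08 and 7.24 CPM in the non-manipulated and 6.34, 3.89 and 5.86 CPM in the albumen-deprived hens. For both, sham 1 stood far above all other hens, while sham 2 lay within their range and sham 3 just below it. The median difference of the list from the mean of the other 6 hens was 1.79 in sham 1, 0.07 in sham 2 and -0.19 in sham 3, on the log2 scale. Without sham 1, 30 of its loci were tested, none passed the nominal level in either direction, and the median log2-fold change was -0.07. The interferon list, genes induced by type I interferon, had the same hen as its highest for 15 of 21 loci, with a median difference of 0.62 in sham 1, -0.16 in sham 2 and 0.05 in sham 3, and IFIH1 was its only locus at the nominal level. From the mean of all hens, the median of the interferon list was 0.55 in sham 1, 0.36 in non-manipulated hen 3 and 0.31 in albumen-deprived hen 3. Without sham 1 the median log2-fold change of the interferon list was -0.06. The actin-binding CORO2B and ANLN, the anillin of dividing cells, also rested on sham 1. CORO2B was at 10.1, 0.745 and 1.19 CPM in the sham-manipulated hens, against 1.33, 1.14 and 1.63 CPM in the non-manipulated and 1.1, 1.43 and 1.51 CPM in the albumen-deprived hens, and its log2-fold change of 1.55 became -0.51 without sham 1.

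Sham 2 was the highest hen for the interleukin 1 receptors and for 8 of the 13 acute phase loci. IL1R2, the decoy receptor, was at 12.3, 71.3 and 2.97 CPM in the sham-manipulated hens, against 3.4, 4.74 and 5.05 CPM in the non-manipulated and 4.01, 3.89 and 2.37 CPM in the albumen-deprived hens. IL1R1, the signalling receptor and its neighbour on chromosome 1, was at 531, 820.0 and 73.5 CPM in the sham-manipulated hens, against 79.5, 162 and 82.3 CPM in the non-manipulated and 133, 80.3 and 76.4 CPM in the albumen-deprived hens. For both, sham 2 was the highest hen and sham 1 the next highest, while sham 3 was below several of the other hens. Their log2-fold changes were 2.89 (SE 0.71, adjusted P = 0.550) for IL1R2 and 2.22 (SE 0.56, adjusted P = 0.550) for IL1R1, and without sham 2 they were 0.98 and 1.57, neither of which passed the looser cut-off.

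Of the 13 acute phase loci tested, 10 were above 0 but none passed the nominal level, with a median difference of 0.23 in sham 1, 1.18 in sham 2 and -0.19 in sham 3. FGB, the fibrinogen beta chain, was at 9728, 22464 and 10550 CPM in the sham-manipulated hens, against 5793, 16112 and 7554 CPM in the non-manipulated and 10083, 5529 and 11104 CPM in the albumen-deprived hens, so that non-manipulated hen 2 was also high. The median log2-fold change of the list was 0.61 with all hens and 0.12 without sham 2. THSD7A and CYP3A7, a cytochrome P450 of drug and steroid metabolism, were likewise highest in sham 2, THSD7A being at 4.06, 20.3 and 3.37 CPM in the sham-manipulated hens, against 4.21, 2.41 and 3.09 CPM in the non-manipulated and 3.56, 2.17 and 3.42 CPM in the albumen-deprived hens.

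Most heterophil genes were high in sham 1 and sham 2, and some of them in non-manipulated hen 1. In that hen GAL1, GAL2, GAL7, LECT2, CATHL2 and LYZ were above the mean of all hens. On the log2 scale S100A9, SERPINB10 and CSF3R were there at -0.67, -0.57 and -0.48 from that mean. LYG2 was at -0.37 (XLOC_002040) and 0.00 (XLOC_002039) in the same hen. In sham 2, CSF3R was at -0.12. Of the 20 heterophil loci 11 were tested, all 11 had a log2-fold change above 0, and 4 (GAL2, GAL7, LECT2 and CATHL2) were higher at the nominal level, beside 52.7% above 0 and 3.36% higher over all loci. GAL2, an avian beta-defensin, was at 8.4, 9.24 and 1.65 CPM in the sham-manipulated hens, against 5.46, 1.54 and 1.46 CPM in the non-manipulated and 1.55, 1.14 and 0.593 CPM in the albumen-deprived hens. LECT2, a leukocyte chemotactic factor, was at 20.0, 20.0 and 4.36 CPM in the sham-manipulated hens, against 15.1, 3.14 and 4.713 CPM in the non-manipulated and 5.18, 3.2 and 1.91 CPM in the albumen-deprived hens. For both loci sham 3 lay within the range of the other hens and non-manipulated hen 1 was high, so the groups overlapped. The summed level of the list was 101, 86.3 and 31.4 CPM in sham 1, sham 2 and sham 3, against 26.6 to 54.7 CPM in the other hens. With sham 3 left out 7 loci were higher, and with sham 1 or sham 2 left out 1 was. CATHL2, above 1 CPM only in sham 1, sham 2 and non-manipulated hen 1, no longer passed the filter without sham 1 or sham 2. MPO, CATHL1, GAL4 and GAL6 did not pass the filter on low counts.

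**Figure D4:**
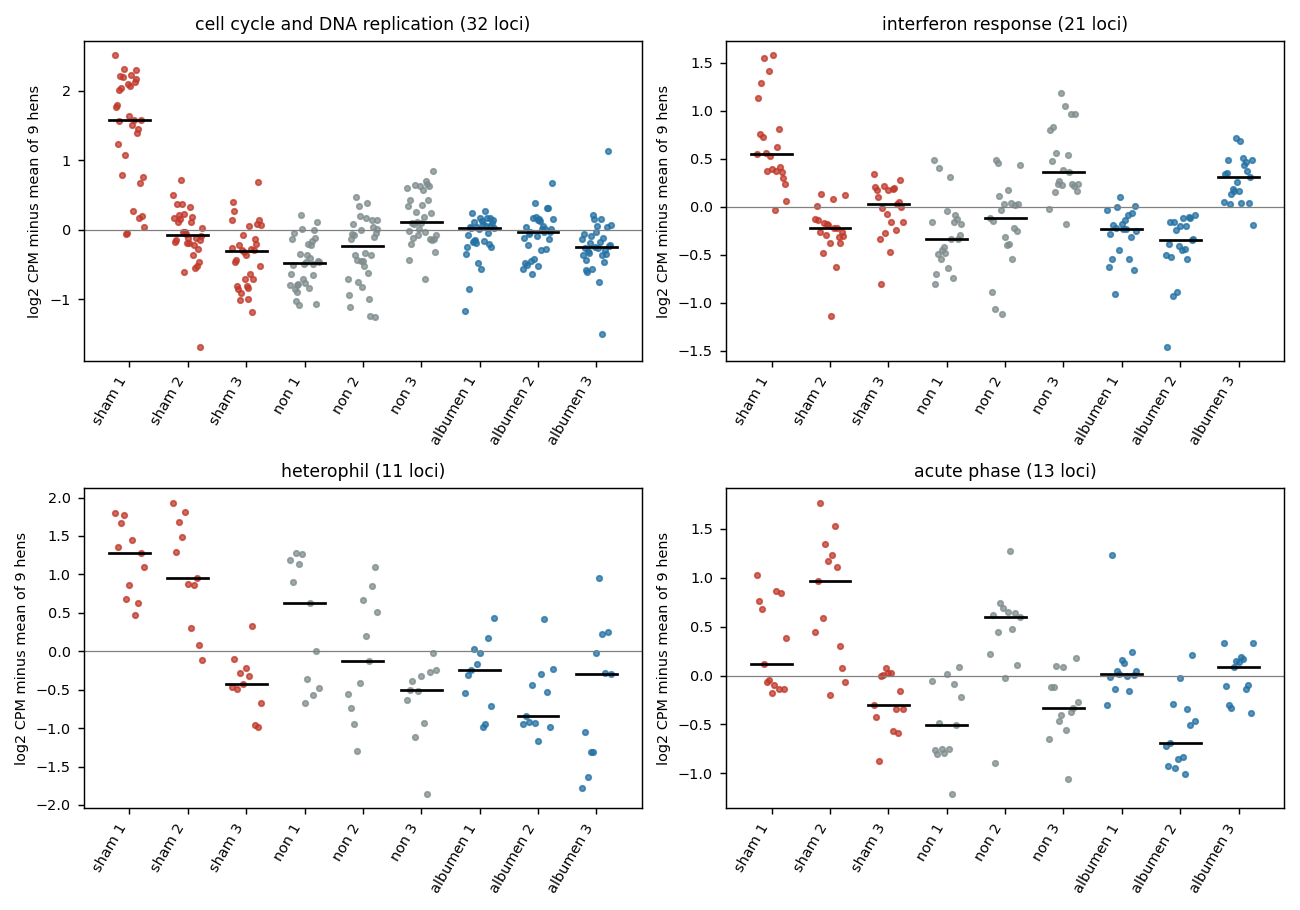
Each point is a locus of a gene list in 1 hen, as log2 CPM minus the mean of that locus over the 9 hens, and the horizontal lines are medians; hens run from the sham-manipulated (left) to the non-manipulated and albumen-deprived. The medians of the cell cycle loci were high in sham 1, those of the heterophil loci in sham 1, sham 2 and non-manipulated hen 1, and those of the acute phase loci in sham 2 and non-manipulated hen 2.

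Sham 3 was the hen nearest to the others most often, for 27 of the 70 loci. It was the highest hen for ANKRD9, at 9.68, 4.57 and 13.1 CPM in the sham-manipulated hens, against 4.21, 4.41 and 3.98 CPM in the non-manipulated and 2.59, 4.8 and 4.02 CPM in the albumen-deprived hens. It was also the highest for SUSD3 and PID1, an adaptor of lipoprotein and insulin signalling. For PID1, at 3.88, 16.8 and 18.7 CPM in the sham-manipulated hens, against 6.35, 4.28 and 8.58 CPM in the non-manipulated and 5.95, 3.83 and 8.23 CPM in the albumen-deprived hens, sham 2 was high as well and sham 1 was at the bottom of the range.

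The genes that supply the egg yolk gave their lowest sums in the 3 sham-manipulated hens, and no test was run on the sum. All 8 egg yolk precursor loci had a log2-fold change below 0, with a median of -0.21, but none passed the nominal level. Their median log2 difference from the mean of the other hens was -0.06 in sham 1, -0.33 in sham 2 and -0.21 in sham 3. From the mean of all hens, the median was 0.01 in sham 1, within the -0.02 to 0.13 of the other hens. It was below that range in sham 2 and sham 3. Sham 1 was the highest hen for 1 of the 8 loci and the lowest for 2. A sum gives most weight to the most abundant loci. The summed level of the 8 loci was 169831, 190899 and 173917 CPM in the sham-manipulated hens, against 227166, 229032 and 213311 CPM in the non-manipulated and 213143, 194037 and 211597 CPM in the albumen-deprived hens. The sum was below that of every other hen in each sham-manipulated hen, with a ratio of means of 0.830. The same order held with scaling by total counts (176754 to 189111 against 200039 to 224269 CPM, ratio 0.877). The lists for autophagy, apoptosis and the insulin-like growth factor axis also had their 3 lowest sums in the sham-manipulated hens, but overlapped with scaling by total counts. VTG2, vitellogenin 2, was at 55818, 67397 and 57789 CPM in the sham-manipulated hens, against 73808, 82995 and 73105 CPM in the non-manipulated and 80539, 63646 and 80952 CPM in the albumen-deprived hens, with overlap by albumen-deprived hen 2 (log2-fold change -0.33, SE 0.18). The locus with the symbol TPRXL, described as vitellogenin-1, was at 32878, 32960 and 31300 CPM in the sham-manipulated hens, against 44984, 38430 and 41682 CPM in the non-manipulated and 40494, 36914 and 41579 CPM in the albumen-deprived hens, without overlap (log2-fold change -0.33, SE 0.15). The oestrogen receptor gene ESR1 had a log2-fold change of -0.10 (SE 0.22).

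Cholesterol synthesis and uptake loci were below 0 for 20 of 22 tested, with a median log2-fold change of -0.39. The median was -0.79 against the non-manipulated hens and -0.13 against the albumen-deprived hens, so the sham-manipulated hens did not stand alone here.

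Other lists were mixed, and their counts at the nominal level stand beside 3.36% higher and 3.94% lower over all loci. In the circadian clock list, 2 of 13 loci tested were higher (CRY1 and ARNTL) and 2 were lower (RORA and REV-ERBB). The clock repressor REV-ERBB was at 30.3, 48.6 and 32.3 CPM in the sham-manipulated hens, against 99.8, 46.2 and 49.4 CPM in the non-manipulated and 61.1, 67.6 and 56.4 CPM in the albumen-deprived hens, and the activator ARNTL was at 8.81, 7.5 and 9.9 CPM in the sham-manipulated hens, against 3.25, 5.55 and 8.25 CPM in the non-manipulated and 6.99, 4.57 and 5.66 CPM in the albumen-deprived hens. The sham-manipulated hens overlapped the others for both, through sham 2. In the autophagy list 4 of 26 loci were lower and none was higher (ULK1, ULK2, UVRAG and MAP1LC3B), with a median of -0.03. In the amino acid breakdown list 3 of 30 loci were higher (GLUL, PRODH and AMT) and KMO, of tryptophan breakdown, was lower. The amino acid transporter loci SLC6A6 and SLC7A10 were lower, as were GPC3 and IGFALS of the insulin-like growth factor axis, 2 of 21 and 2 of 24 tested. None of 60 oxidative phosphorylation loci, 66 cytosolic ribosomal protein loci and 30 proteasome loci passed the nominal level, with medians of -0.01, 0.01 and 0.05.

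**Figure D5:**
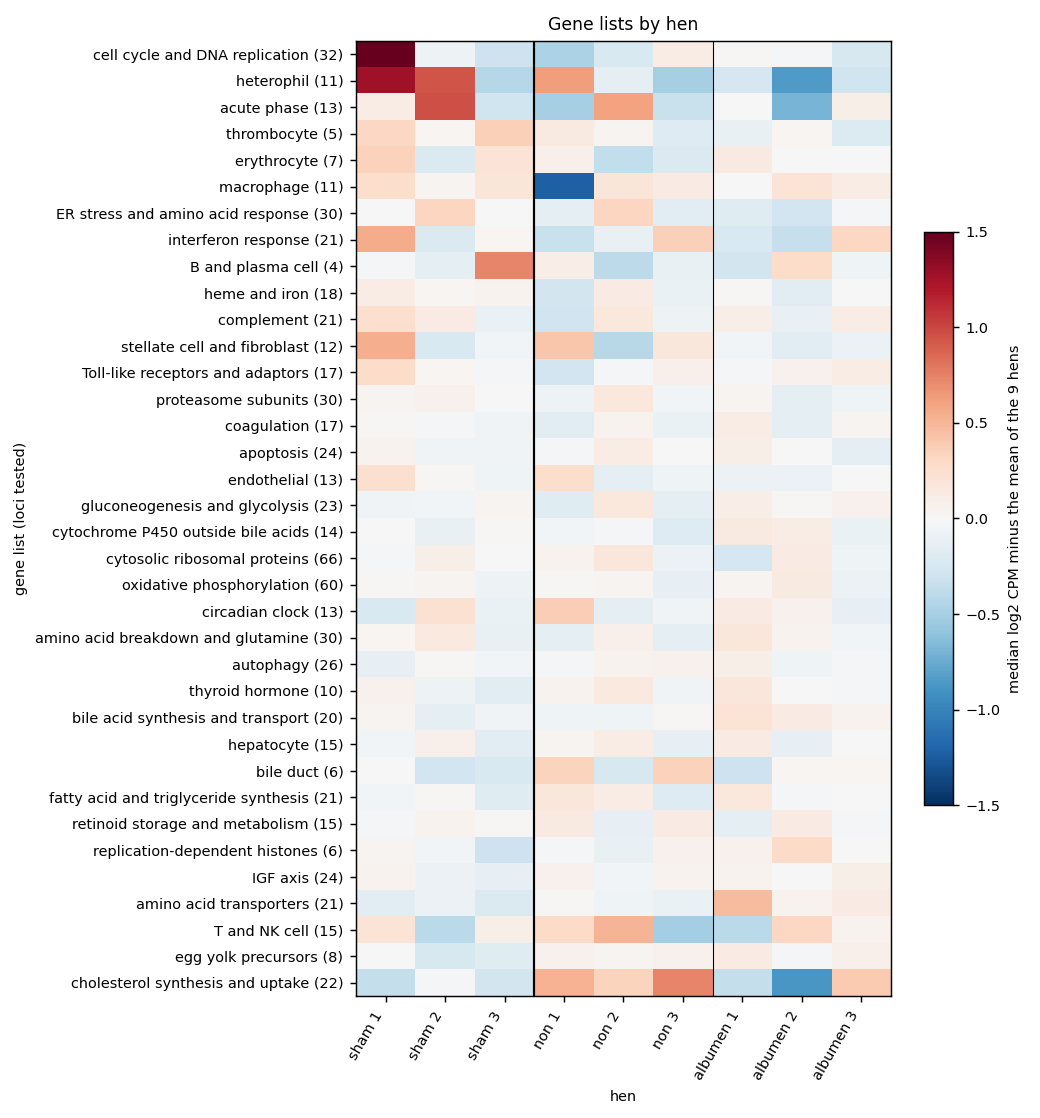
Gene lists (rows, number of loci tested in brackets, ordered by median log2-fold change) by hen (columns, sham-manipulated at the left); the colour is the median over the list of log2 CPM minus the mean of the 9 hens. The largest single-hen values among the sham-manipulated hens were 1.58 for the cell cycle list in sham 1, 1.28 for the heterophil list in sham 1 and 0.96 for the acute phase list in sham 2.

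The genes that the study listed as differing between albumen-deprived and sham-manipulated hens were read against the non-manipulated hens. They were matched by name, so H2A-VII, a single entry of the study, gave both XLOC_001479 and XLOC_000299. Against the albumen-deprived hens the log2-fold changes of these H2A-VII loci were -0.93 and -0.13. Of all loci so matched, 29 were tested. At the nominal level 25 differed between the sham-manipulated and all other hens, 12 higher and 13 lower, beside 7.29% of all loci. The study chose them on these samples, so neither this count nor those that follow for these loci are independent evidence. On the log2 scale the non-manipulated mean lay nearer to the albumen-deprived mean for 17 of the 29 and nearer to the sham-manipulated mean for 12. The sham-manipulated hens were outside the range of all other hens for 7, beside 3.43% of all loci. These were GLUL, HERPUD1 and ENSGALG00000009387 (higher) and BMF, TNFSF10, H2B-I and ENSGALG00000008635 (lower). Both ENSGALG loci had passed the filter on low counts only through the hens in which they were high. In the study's own qPCR with more hens, BMF and TNFSF10 were also lower in sham-manipulated than in albumen-deprived hens. Differences in that qPCR are given at the study's own cut-off, which was looser than the nominal level used here. For neither gene did that qPCR separate the sham-manipulated from the non-manipulated hens. For TNFSF10 it set the albumen-deprived hens above both other groups. GLUL and HERPUD1 did not differ there. H2B-I was higher there in sham-manipulated than in albumen-deprived hens, but only at that looser cut-off. NXPH2, for which the hens overlapped here, was lower there in the sham-manipulated hens than in both other groups. H2B-I is a histone gene with near-identical copies, and reads that fit several copies may be missing from its counts.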

How the data were processed

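Liver RNA of 9 hens was sequenced. The deposited files held read counts per locus, which the authors made with TopHat2 2.0.8b on Galgal4, Cufflinks 2.1.1 for locus models and HTSeq 0.5.4p3 for counting, and a table of FPKM values that the authors had normalized for GC content and by quantiles between samples, with GC content in percent per locus in the deposited annotation. Deposited columns of the authors' own comparisons (log2-fold changes, P-values and calls) were not used. Loci with CPM above 1 in at least 3 libraries were kept, counts were scaled by TMM, and a 3-group quasi-likelihood F-test in edgeR 4.0.16 (R 4.3.3) compared the sham-manipulated hens with the mean of the other groups. This test was used in place of the authors' edgeR 3.2.3 pipeline. CPM in the text are TMM-scaled, and log2 values used a prior count of 2. The counts were not corrected for GC content. Across the loci tested, the log2-fold change had a Spearman correlation of 0.14 with GC content and -0.09 with locus length. P-values were adjusted over all loci tested by Benjamini-Hochberg. Libraries held 13720872 to 21747636 counts, which limited precision at loci of few counts. The scripts were tested on simulated data in which 200 loci were changed by a log2-fold change of 2. At the main cut-off the quasi-likelihood F-test recovered 93% of these and called 10 unchanged loci. The likelihood ratio test recovered 97% and called 32 unchanged loci. The measured data gave 10 and 47 loci with these tests.

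Named genes were up to 12 identified loci in each direction with the smallest P-value among those at an unadjusted P-value under 0.005 and 1.5-fold with all 3 sham-manipulated hens outside the range of the other 6, up to 3 unidentified loci per direction by the same rule, up to 4 members of each list at an unadjusted P-value under 0.05, and up to 3 loci per sham-manipulated hen, of those past that level with a log2-fold change above 1, whose change shrank most without that hen. Others (IL1R1, FXR, NR0B2, FGF19, FGB, VTG2, TPRXL, ESR1, TOP2A, MKI67, FKBP10, TRAF1, the further unidentified loci and those counted under a list) were named after their values were seen. The members and the gene lists were chosen with earlier results of these data known, and list names were matched to file symbols by description. Alternatives were DESeq2 1.42.0, limma 3.58.1 on log2(FPKM + 0.1), other scalings, filters and designs, and leaving out each hen. Replicate numbers did not pair the hens. Some results for withheld items are not reported here.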

Additional observations from a re-analysis of the deposited data

Results flagged for a closer look

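Among the other 6 hens, 1 hen lay far from the rest for 6 of the 86 named loci, by the ratio of its gap to the whole range (critical value 0.625). Chance alone gives such a ratio in about 1 of 20 groups. Non-manipulated hen 1 was the high value for 4 heterophil loci, at 5.46 CPM for GAL2, 3.17 CPM for GAL7, 15.1 CPM for LECT2 and 1.25 CPM for CATHL2. Albumen-deprived hen 3 was the low value for GLUL, at 167 CPM, and albumen-deprived hen 1 for ANKRD9, at 2.59 CPM.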

How the results depend on the processing

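Loci at the main cut-off, 10 for the sham-manipulated against all other hens, 8 against the non-manipulated and 13 against the albumen-deprived hens, became 47, 33 and 53 with the likelihood ratio test and 43, 28 and 45 with the DESeq2 Wald test. Without the filter on low counts they were 17, 10 and 22, and with a term for library code 11, 5 and 13. The 70 loci at the looser cut-off became 155 and 153 with those tests. With each hen left out in turn, the main cut-off gave 5 to 19 loci against all others (5 without albumen-deprived hen 3, 6 without non-manipulated hen 3 and 19 without sham 2), 4 to 14 against the non-manipulated hens (4 without non-manipulated hen 1, albumen-deprived hen 1 or albumen-deprived hen 2, 14 without sham 2) and 9 to 23 against the albumen-deprived hens (21 without sham 3, 23 without sham 2). The looser cut-off gave 54 to 107, the highest without sham 2. Loci with an adjusted P-value under 0.05 numbered 0 with each hen left out, 23 with the likelihood ratio test and 31 with the Wald test. With a replicate block the main cut-off gave 13 loci (14 on the FPKM values) and the looser 77, while same-numbered hens correlated at -0.16 to 0.24, so the numbers were not used as pairs. The block kept 46 of the 70 loci and 5 of the 10, or 29 and 4 on the FPKM values. Without a block the FPKM values gave 7 loci at the main cut-off and 76 at the looser. These kept 41 of the 70 loci and 5 of the 10. Of 86 named loci, 3 reversed direction. With each hen left out CORO2B ranged from -0.51 (without sham 1) to 2.06, ENSGALG00000000791 from -0.0906 (without sham 1) to 1.80 and RASGEF1A from -0.0398 (without sham 2) to 1.53. The sums for autophagy, apoptosis and growth factor axis loci overlapped with scaling by total counts, which was chosen after seeing the data.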
